A study of Homo sapiens with 4 samples.

Results

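MIR202, MIR573 and MIR632 are 3 microRNA (miRNA) genes, found by symbol from the identifiers in the count tables. Listed there are 1869 miRNA genes and 7062 small RNA features. The 3 genes had unlike read totals, with 80 reads over all libraries for MIR202, 783 for MIR573 and 28 for MIR632. They were chosen from the measured values: in all 4 libraries their levels did not overlap between 52X T4A and 52X WT, and their mean levels differed about 3-fold or more. MIR202 was higher in 52X T4A, whereas MIR573 and MIR632 were lower. Since the choice used this contrast, the difference of each of the 3 genes is given as a description and carries no test.

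The libraries came from HEK293T cells, a human embryonic kidney line that the labels also call HEK293. RNA polymerase II (Pol II) carries a C-terminal domain (CTD) of heptad repeats, and the cells were transfected for a CTD of 52 repeats that was either wild type (52X WT) or T4A, in which threonine at heptad position 4 is replaced by alanine (52X T4A). Both groups received 1.5 µg of plasmid in each well with PEI and then α-amanitin, a Pol II toxin, at 2.5 µg/ml for 72 h, by which time untransfected cells die. Each group had 2 libraries of total RNA, called biological replicates by the submitters, and both groups rested on transient transfection under the toxin. No library of untransfected or untreated cells was analysed here.

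Most miRNA genes are transcribed by Pol II as long primary transcripts, from which Drosha and DGCR8 cut a hairpin in the nucleus and Dicer a short duplex in the cytoplasm. One strand, the mature miRNA, is loaded into an Argonaute protein and pairs with messenger RNAs mainly through its seed, bases 2 to 8 from its 5′ end. A miRNA gene may have its own promoter or lie within a host gene. Small RNA sequencing reads short RNA, so a level here is that of short RNA and not of transcription. Reads over a hairpin need not all be its processed products, as described for MIR632 below. miR-202 is best known from testis and ovary.

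The sequences below, from RefSeq (GRCh38.p14) and written 5′ to 3′, show what the reads of these genes come from. In the hairpins the capitals mark the mature arms.

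MIR202 hairpin: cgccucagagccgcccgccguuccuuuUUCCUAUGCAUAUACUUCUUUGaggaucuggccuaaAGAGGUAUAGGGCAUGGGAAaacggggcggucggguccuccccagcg
MIR573 hairpin: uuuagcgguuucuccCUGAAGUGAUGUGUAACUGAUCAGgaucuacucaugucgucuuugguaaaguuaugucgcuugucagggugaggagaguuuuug

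MIR202 yields 2 mature arms, of 22 bases (hairpin bases 28 to 49) and 20 bases (64 to 83), and MIR573 yields 1 of 24 bases (16 to 39). In the mature sequences the capitals mark the seed, and relatives are shown because they share it in whole or in part.

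hsa-miR-202-5p: uUCCUAUGcauauacuucuuug
hsa-miR-337-3p: cUCCUAUAugaugccuuucuuc
hsa-miR-202-3p: aGAGGUAUagggcaugggaa
hsa-let-7a-5p: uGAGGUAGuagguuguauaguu
hsa-miR-4458: aGAGGUAGguguggaagaa
hsa-miR-573: cUGAAGUGauguguaacugaucag
hsa-miR-3616-5p: aUGAAGUGcacucaugauaugu

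The seed of miR-202-3p matched let-7a at bases 2 to 7 (GAGGUA) and differed from it at base 8. That run of bases was shared with 14 genes, namely 12 let-7 genes (MIR98 among them), MIR4458 and MIR4500, and 0 of them shared base 8 as well. miR-202-5p shared bases 2 to 7 with MIR337 alone, and miR-573 shared the whole seed with MIR3616 alone. MIR632 is named without a sequence, and its seed was not compared, since no mature sequence of it was available. MIR202 and MIR573 had no seed in common. No mature sequence of MIR202 or MIR573 occurred in the hairpin of another gene of the table, and each hairpin of the 3 genes, MIR632 included, matched the GRCh37 primary assembly exactly 1 time, with no other perfect match there.

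The hairpins are described at the positions the tables give (hg38 per the submitters' processing notes). MIR202 (ENSG00000284219.1, chr10:133247511-133247620, minus strand, 110 bases) lay within MIR202HG, a long noncoding host gene on the same strand, and began 265 bases after the start of that gene. By the GENCODE models an exon of MIR202HG-201 covered hairpin bases 1 to 67, which hold all of the 5p arm, and an exon of MIR202HG-203 covered bases 86 to 110. The hairpin was intronic in MIR202HG-202.

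MIR573 (ENSG00000207697.1, chr4:24520192-24520290, minus strand, 99 bases) lay 7184 bases beyond the RefSeq end of DHX15, which encodes a helicase of the spliceosome, on the same strand. It fell in an intron of DHX15-206, a longer GENCODE transcript with no defined coding sequence. MIR632 (ENSG00000283774.1, chr17:32350109-32350202, plus strand, 94 bases) sat over the start of ZNF207, which encodes a zinc finger protein that binds the spindle checkpoint protein BUB3. The RefSeq start of ZNF207 was at hairpin base 49, and 10 GENCODE transcripts of ZNF207 began within the hairpin, between bases 24 and 90. Of these, 9 had untranslated sequence there. The whole hairpin also lay in introns of a long noncoding gene on the same strand, ENSG00000265794. Reads are counted over the hairpin as a whole, so a fragment of the 5′ end of ZNF207 mRNA and a product of the hairpin cannot be told apart in the MIR632 counts.

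**Figure D1:**
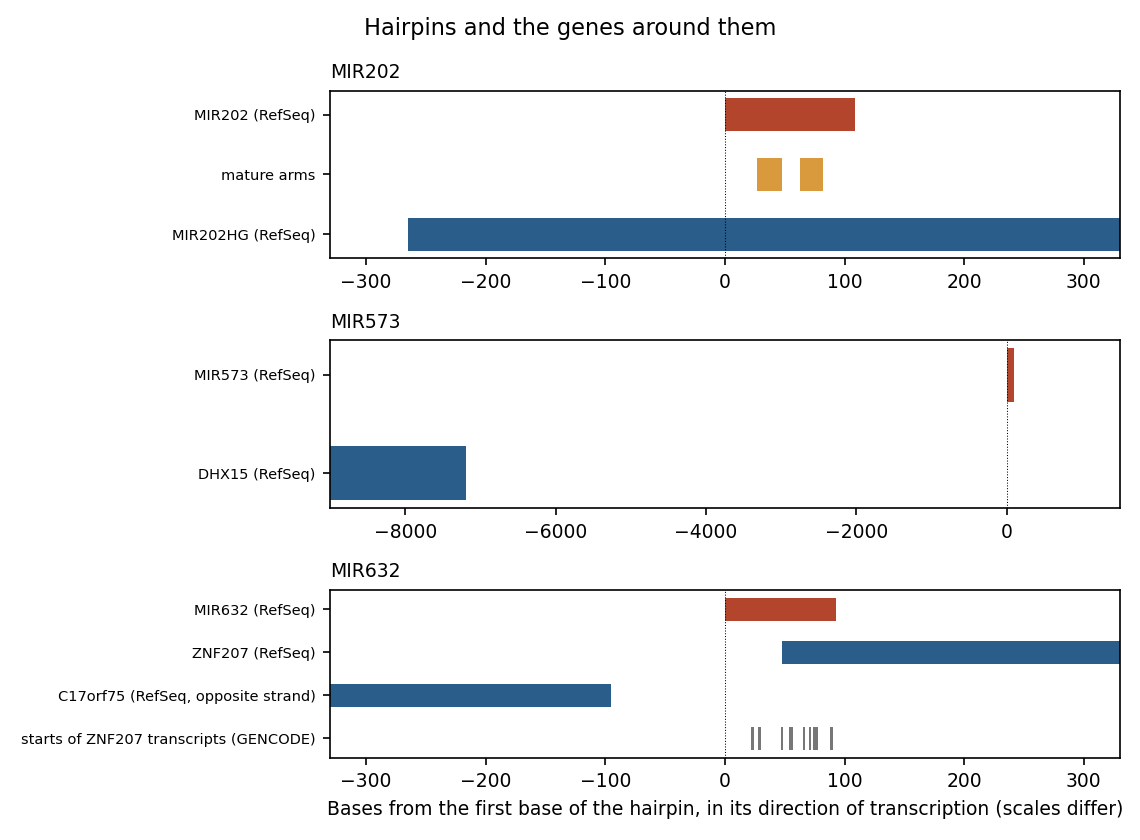
Hairpins of MIR202, MIR573 and MIR632 (red), RefSeq genes (blue) and starts of GENCODE ZNF207 transcripts (grey). The axis gives bases from the first base of the hairpin in its direction of transcription. Mature arms (orange) are drawn for MIR202 alone. MIR202 lies 265 bases inside its host gene, MIR573 lies 7184 bases past the end of DHX15, and MIR632 covers the start of ZNF207. Genes that run past a panel are clipped at its edge.

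The hairpins also differed in composition. The GC content was 58.2% for MIR202, 43.4% for MIR573 and 66% for MIR632, against a median of 52.1% over 1499 miRNA hairpins. The folding energy predicted by RNAfold, per 100 bases, was -53 kcal/mol for MIR202, -28.2 kcal/mol for MIR573 and -47.4 kcal/mol for MIR632, against a median of -45.2 kcal/mol. MIR573 was thus the weakest fold of the 3, with only 4.94% of the hairpins folding more weakly per base. In neither property did the 2 genes that were lower in 52X T4A lie on the same side of the median.

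Library totals ran from 16180790 to 27370127 counts, and miRNA genes took 63.5% to 75.3% of them, the lowest share being that of 52X WT replicate 1. Levels are counts-per-million values (CPM) after TMM scaling. At these depths 1 count was worth 0.0632 and 0.0317 CPM for the pair of 52X T4A libraries and 0.0685 and 0.0531 CPM for the 52X WT pair, in replicate order. No miRNA defines HEK293T cells alone, but all 9 miRNA genes listed for the line were present. Their summed levels were 216987 to 238408 CPM for 52X T4A and 250564 to 276095 CPM for 52X WT. Some of the 9 are copies, and shared reads can enter these sums more than 1 time. Intervals are exact 95% Poisson intervals, which cover counting error only.

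For MIR202 the 52X T4A replicates gave 25 and 49 counts and the 52X WT replicates 3 and 3. The 52X T4A levels were 1.58 CPM (interval 1.02 to 2.33) and 1.55 CPM (1.15 to 2.05). The 52X WT levels were 0.206 CPM (0.0424 to 0.601) and 0.159 CPM (0.0329 to 0.466). Both 52X T4A libraries were high and both 52X WT libraries were near the limit of counting, with no overlap and with intervals that did not meet. Mean levels were 1.57 ± 0.0195 CPM with T4A repeats and 0.182 ± 0.0327 CPM with wild-type repeats (SD, n = 2), an 8.58-fold difference or 3.10 on the log2 scale. The ratio of the summed counts, each over the summed library sizes, was 8.69, with a counting interval of 3.81 to 24.5.

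For MIR632 the 52X T4A replicates gave 1 count each and the 52X WT replicates 10 and 16. Levels were 0.0632 CPM (0.0016 to 0.352) and 0.0317 CPM (0.000802 to 0.176) for 52X T4A, and 0.685 CPM (0.329 to 1.26) and 0.850 CPM (0.486 to 1.38) for 52X WT. Each 52X T4A library thus rested on a single count, and the lower bound of 52X WT replicate 1 lay below the upper bound of 52X T4A replicate 1, although the values themselves did not overlap. Mean levels were 0.0474 ± 0.0223 CPM with T4A repeats and 0.767 ± 0.116 CPM with wild-type repeats (SD, n = 2), a log2 difference of -4.02. The ratio of summed counts was 18.4 in favour of 52X WT, with a counting interval of 4.62 to 160, so its size is poorly set.

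MIR573 was the best counted of the 3 genes, with 84 and 167 counts in 52X T4A and 202 and 330 counts in 52X WT. Levels were 5.31 CPM (4.23 to 6.57) and 5.29 CPM (4.52 to 6.15) for 52X T4A, and 13.8 CPM (12.0 to 15.9) and 17.5 CPM (15.7 to 19.5) for 52X WT. The 52X T4A libraries were close to each other and both lay below the 52X WT libraries, which stood further apart. Mean levels were 5.30 ± 0.0127 CPM with T4A repeats and 15.7 ± 2.61 CPM with wild-type repeats (SD, n = 2), a 2.96-fold difference or -1.57 on the log2 scale. The ratio of summed counts was 3.01 in favour of 52X WT, with a counting interval of 2.58 to 3.51.

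**Figure D2:**
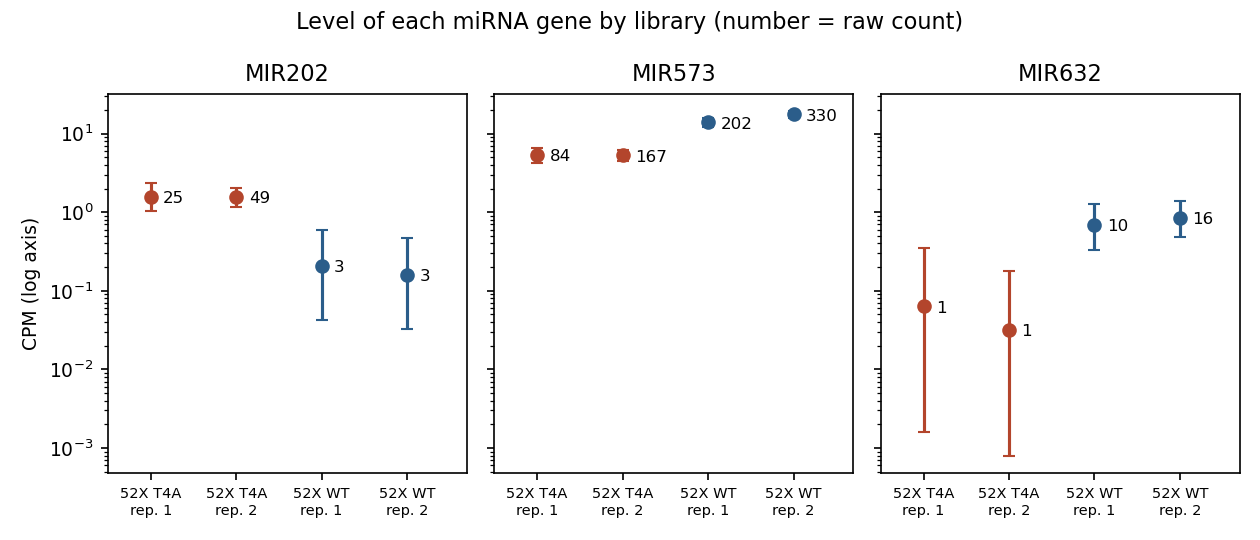
Level of MIR202, MIR573 and MIR632 in CPM (log axis) in each library, 52X T4A in red and 52X WT in blue, with the raw count beside each point and bars for the exact 95% Poisson interval. MIR202 has 3 counts in each 52X WT library and MIR632 has 1 count in each 52X T4A library, while MIR573 has 84 or more counts in every library.

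The replicates of each group were compared with each other. The log2 ratio of replicate 1 to replicate 2 of 52X T4A was 0.03 for MIR202, 0.0049 for MIR573 and 1.00 for MIR632, the last between 1 and 1 counts with a counting interval of -5.30 to 7.29. In 52X WT it was 0.37 for MIR202, -0.34 for MIR573 and -0.31 for MIR632. Only the MIR573 ratio in 52X WT had a counting interval that left out 0, at -0.60 to -0.08. Counting error was therefore as wide as the replicate spread or wider for MIR202 and MIR632. Over single pairs of libraries, 1 from each group, the fold ranged from 7.55 to 9.91 for MIR202 (higher in 52X T4A), from 2.61 to 3.31 for MIR573 and from 10.8 to 26.8 for MIR632 (both lower).

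All 3 genes passed the filter on low counts, at 0.566 CPM in at least 2 libraries. MIR573 did so in all 4 libraries, MIR202 only through the 52X T4A libraries and MIR632 only through the 52X WT libraries, so MIR202 and MIR632 could pass only by being high in 1 group. The groups did not overlap for 3 of 3, which the choice of the genes fixed. The same held for 40.1% of all 1480 features tested, that is for 594 of them. Nothing is read from the members' count. With 2 libraries against 2, the smallest p that an exact two-sided permutation test can give is 0.333.

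By reads over all libraries, not divided by length, MIR573 was 265th of the 1269 miRNA genes with counts, with 783 reads. MIR202 was 503rd with 80 reads and MIR632 was 686th with 28 reads. To set these genes beside others of low count, all 469 miRNA genes with a mean of 3 to 50 counts were described in the same way. Of these, 185 did not overlap between groups. Among them 24 were 3-fold or more higher in 52X T4A, or 5.12% of the 469, and 17 were 3-fold or more lower, or 3.62%. MIR202 and MIR632 are among these 24 and 17 genes. With a wider range of 3 to 200 counts, which takes in MIR573, there were 589 genes, of which 25 were past 3-fold higher and 17 past 3-fold lower. MIR573 itself, at 2.96-fold, fell just short of 3.

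Some genes lay on either side of a 3-fold difference. Just past it were MIR6799 (3.005-fold lower, 1 and 4 counts in 52X T4A against 6 and 3 in 52X WT), MIR4726 (3.02-fold higher, 9 and 24 against 1 and 7) and MIR509-1 (3.03-fold higher, 9 and 22 against 3 and 4, with the same counts as its copy MIR509-2). Just short of it were MIR1275 (2.98-fold higher, 3 and 9 against 0 and 3), MIR1976 (2.97-fold lower, 9 and 13 against 20 and 29) and MIR1258 (2.74-fold higher, 28 and 52 against 5 and 17). The counts on both sides are alike, and the limit marks no break in the values.

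**Figure D3:**
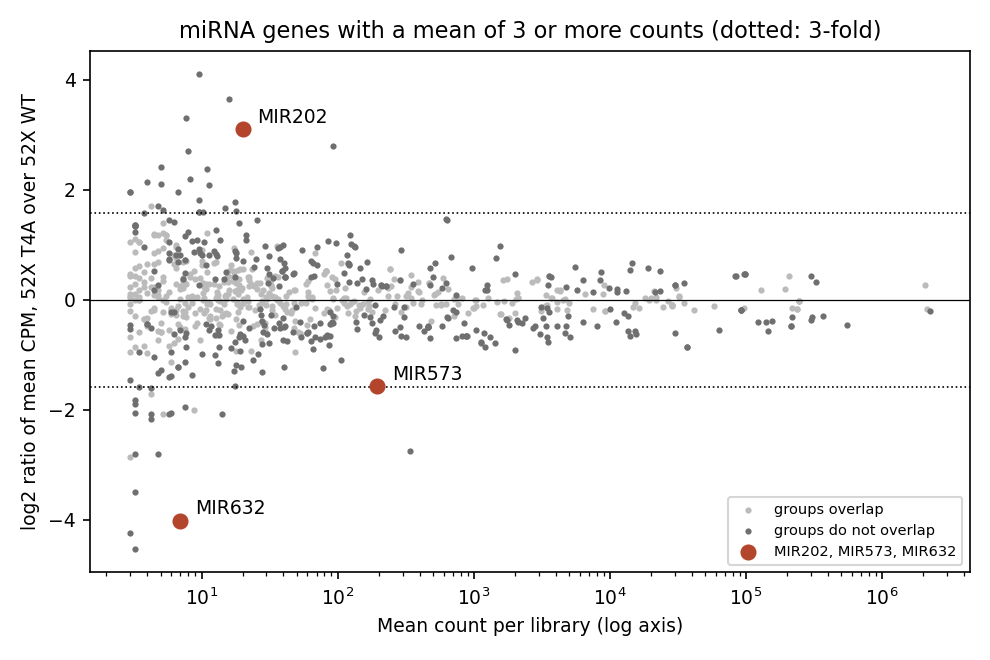
log2 ratio of mean CPM, 52X T4A over 52X WT, against the mean count per library (log axis) for miRNA genes with a mean of 3 or more counts, with dotted lines at 3-fold. MIR202 (3.10), MIR573 (-1.57) and MIR632 (-4.02) are in red, genes whose groups do not overlap are dark grey and others light grey. The spread of the ratio widens towards low counts. MIR3936, with 0 counts in 52X WT, is not drawn.

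The genes most like each of the 3 were found by the Euclidean distance between centred log2 CPM values over the 4 libraries, among 851 miRNA genes with a mean of 3 or more counts. Nearest to MIR202 were MIR203B (distance 0.225, 101 and 233 counts in 52X T4A against 15 and 18 in 52X WT), MIR429 (0.279, 9 and 20 against 1 and 1) and MIR3936 (0.745, 7 and 6 against 0 and 0), where the median distance was 2.89. MIR429 belongs to the miR-200 family, which represses the ZEB factors of epithelial to mesenchymal transition. The miR-203 family is abundant in skin epithelium. MIR203, better counted than MIR203B, had a log2 ratio of mean CPM of 0.12, with groups that overlapped.

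Nearest to MIR573 were MIR1976 (0.325), MIR508 (0.354, 12 and 29 counts against 28 and 42) and MIR548AZ (0.405, 10 and 19 against 18 and 31), with a median distance of 1.71. MIR632 had less close neighbours: MIR34C (0.729, 81 and 163 counts against 580 and 548), MIR3193 (0.828, 1 and 0 against 5 and 7) and MIR4779 (1.02, 0 and 1 against 6 and 6), with a median of 3.17. MIR34C, a target gene of p53, was by far the best counted of these 9. Among the 3 genes themselves the distance was 1.58 between MIR573 and MIR632, 4.38 between MIR202 and MIR573 and 5.92 between MIR202 and MIR632. These distances rest on 4 libraries and describe likeness in these libraries only.

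The let-7 genes, whose seed is closest to that of miR-202-3p and which hold back growth and are abundant in differentiated cells, were taken from an edgeR quasi-likelihood fit to all 1480 features. A feature was called at a Benjamini-Hochberg adjusted p (FDR) below 0.05 and a fold above 1.5, which 2 features or 0.135% reached. All 12 let-7 genes were tested and 0 were called, by edgeR or by DESeq2. At an unadjusted p below 0.05 there were 6 of 12, against 10.3% of all features, and 11 of 12 had a log2 fold change above 0. The 6 did not hold: there were 0 without 52X T4A replicate 1, 0 without 52X WT replicate 1, 2 with miRNA factors, 1 with DESeq2, and between 3 and 8 under the other settings. The median was 0.47, against -0.05 for all features, and values ran from -0.07 (MIRLET7D) to 0.67 (MIRLET7E). Summed over the 12 genes, the 52X T4A libraries held 27735 and 33208 CPM at the lowest and highest. The 52X WT libraries held 20402 and 24675 CPM, so that the groups did not overlap. Reads shared by copies can enter these sums more than 1 time.

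The most abundant let-7 genes were MIRLET7A1, MIRLET7A3, MIRLET7A2 and MIRLET7F2. MIRLET7A1 had 96512 and 162252 counts in 52X T4A and 53715 and 83743 in 52X WT. Its log2 fold change was 0.47 (SE 0.205, FDR 0.467 in edgeR), and MIRLET7A2 and MIRLET7A3, which give the same mature RNA and nearly the same counts, had 0.47 each. MIRLET7F2 had 0.43 (SE 0.206, FDR 0.467). These genes are not independent, since copies share reads. The median was 0.24 without 52X WT replicate 1 and stayed above 0 without any other single library. MIR4458 and MIR4500 were not tested, nor was MIR3616, the seed relative of miR-573, with 3 and 14 counts against 3 and 10. MIR337 had no counts.

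MIR202 is known from gonads, so 27 miRNA genes of testis, epididymis and the germ line were examined, of which 21 had counts and 13 were tested. edgeR called 1 of them lower in 52X T4A and 0 higher. This was MIR34C, with a log2 fold change of -2.74 (SE 0.343, FDR 0.0258 in edgeR), and 2 genes had an unadjusted p below 0.05. Over all 1480 features, edgeR called 0.135%, and 10.3% had a p that low. Of the 13 genes 7 had a fold change above 0, with a median of 0.02 and a range of -2.74 to 0.84. Among these 7 are MIR514A1, MIR514A2 and MIR514A3, which are copies and not independent. Each had 32 and 75 counts against 20 and 36 and a log2 fold change of 0.42. With no filter 9 of 21 genes were above 0 and the median was -0.65, against 0.01 for all features. Leaving out 52X WT replicate 1 gave a median of -0.45 and leaving out 52X WT replicate 2 gave 0.62, and the median was also below 0 without either 52X T4A library (-0.15 and -0.24).

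Of the other abundant genes of that list, MIR449C, a miRNA of multiciliated cells, had 225 and 365 counts against 310 and 373 and a log2 fold change of -0.67 (SE 0.317, FDR 0.467 in edgeR). MIR449A of the same cluster had 86 and 172 counts against 54 and 131 and a log2 fold change of 0.02 (SE 0.388, FDR 0.991). MIR891A, a miRNA of the epididymis, had 37 and 106 counts against 77 and 77 and a log2 fold change of -0.70 (SE 0.367, FDR 0.467). Thus MIR202 was high in the group in which MIR34C was low, and the list as a whole had no common direction.

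Markers of other cell types were measured beside MIR202. All 6 miRNA genes of skeletal and heart muscle had counts, and their summed level was 81.6 to 96.6 CPM for 52X T4A against 30.5 to 33.1 CPM for 52X WT. Of these, 4 were tested, all 4 with a log2 fold change above 0 and an unadjusted p below 0.05, and 0 were called by edgeR. That p was reached by 10.3% of all features. The 4 are 2 pairs of copies and not independent, and shared reads can enter the summed level more than 1 time. MIR133A1 and MIR133A2 each had 10 and 29 counts in 52X T4A, against 2 and 3 and against 3 and 3 in 52X WT. Both passed the filter only through the 52X T4A libraries, where they were high. DESeq2 called 2 of the 4 muscle genes higher, where it called 29 of all 1480 features. edgeR also called 2 with library size alone, among 9 features, and 2 with the replicate number as a block, among 18. With no filter 3 of 6 were called, among 29 of 3803 features. With single libraries left out, the median log2 fold change of the tested muscle genes ran from 1.78 to 2.20. The median of all features then ran from -0.099 to -0.020. The most abundant, MIR1-1, had 738 and 1259 counts against 220 and 309 (log2 fold change 1.46, SE 0.304, FDR 0.186 in edgeR), and MIR1-2, its copy, cannot be told from it. These levels moved with the groups, as those of MIR202, MIR573 and MIR632 did, and their part in those differences was not tested.

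Of the lists for hepatocytes, red and white blood cells, neurons, and fibroblasts and smooth muscle, the summed level did not overlap between groups for the white blood cell genes alone. The 2 features named MIR122, the hepatocyte marker, together gave 0.253 to 0.947 CPM over all libraries, and the red blood cell genes MIR451A and MIR144 together gave 0.206 to 0.637 CPM. White blood cell genes (MIR142, MIR223 and MIR155) summed to 8.20 to 10.2 CPM for 52X T4A and 6.65 to 7.33 CPM for 52X WT, mostly from MIR155. Over all libraries, the 3 neuronal MIR124 genes, which are copies that can share reads, summed to 4.36 to 12.1 CPM. MIR143 and MIR145, of fibroblasts and smooth muscle, summed to 197 to 256 CPM.

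The features nearest to each gene on its chromosome were also examined. Within 500 kb there were 4, of which 2 had counts and were tested and 0 were called by edgeR or DESeq2. MIR3944, 123936 bases from MIR202, had 178 and 409 counts against 259 and 311, with a log2 fold change of -0.50 (SE 0.316, FDR 0.548 in edgeR), the opposite sign to that of MIR202. RN7SL16P, a 7SL pseudogene 42903 bases from MIR573, had no counts. Of the Y_RNA features near MIR632, ENSG00000202100.1, at 113172 bases, had no counts, while ENSG00000201178.1, at 480017 bases, had 95 and 222 counts against 171 and 200, with a log2 fold change of -0.77 (SE 0.331, unadjusted p 0.0434, FDR 0.460 in edgeR).

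MIR632 overlaps the start of a protein-coding gene, and 35 miRNA genes in all overlapped the window from 250 bases before to 50 bases after such a start on the same strand. In 15 of them the hairpin covered the start itself. This list was drawn up after values had been seen and is given without a test of its own. Of the 34 genes other than MIR632, 24 had counts and 8 were tested, of which edgeR called 0 and 1 had an unadjusted p below 0.05. Of all 1480 features, 0.135% were called and 10.3% had such a p. The median log2 fold change of the 8 genes was -0.25, with a range of -0.76 to 0.51, and 1 of 8 was above 0. When libraries were scaled by library size alone or by upper quartile factors, 4 of 8 were above 0. Without 52X T4A replicate 1 the median turned to 0.084, with 5 of 9 tested genes above 0. Without 52X WT replicate 1 there was 1 gene called lower, and without 52X WT replicate 2 there was 1 called higher.

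The most abundant of them was MIR3615, with a log2 fold change of -0.40 (SE 0.254, FDR 0.548 in edgeR). MIR7706 had -0.76 (SE 0.265, FDR 0.395), with 1868 and 4662 counts against 2873 and 4764. MIR125A had -0.09 (SE 0.267, FDR 0.945) and MIR484 had -0.08 (SE 0.324, FDR 0.969). Among the scarce genes of this list, MIR3917 and MIR6132, whose hairpins also cover a gene start, were past 3-fold with groups that did not overlap, and in opposite directions. MIR3917 had 0 and 5 counts in 52X T4A against 5 and 7 in 52X WT, a log2 difference of -2.17, and MIR6132 had 7 and 22 against 1 and 2, a log2 difference of 2.70.

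**Figure D4:**
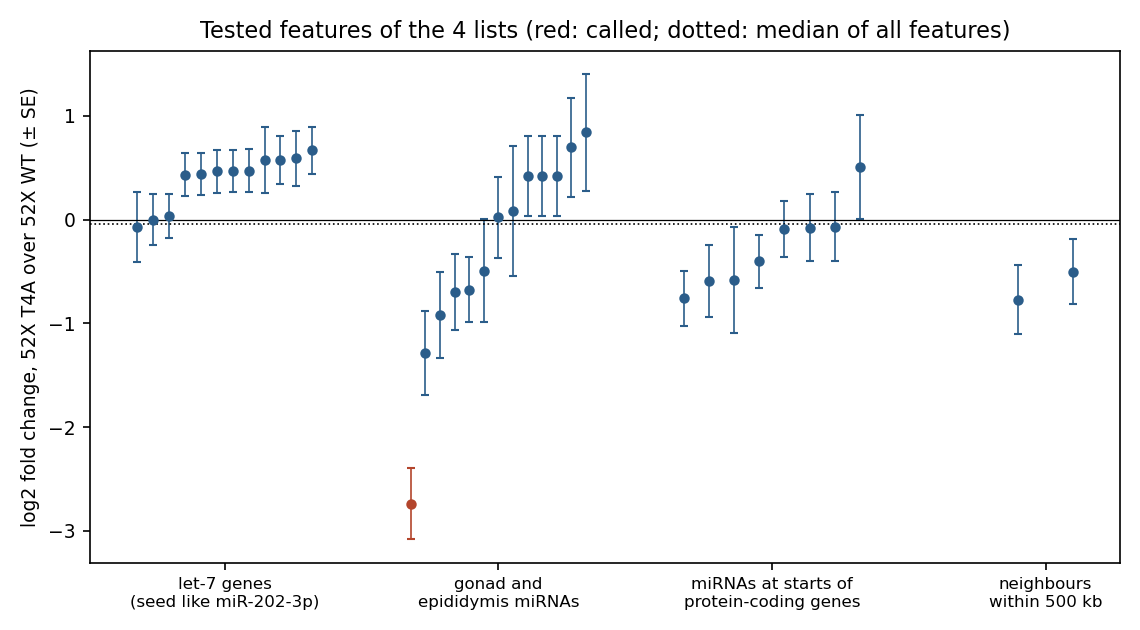
log2 fold change, 52X T4A over 52X WT, with its SE for the tested features of 4 lists: let-7 genes, gonad and epididymis miRNAs, miRNAs at starts of protein-coding genes, and neighbours within 500 kb. The dotted line is the median of all features (-0.05) and the red point is MIR34C, the called feature of these lists at -2.74. The let-7 genes lie between -0.07 and 0.67.

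The direction of each of the 3 genes held under each scaling and without each library. MIR202 stayed between 2.93 and 3.29 on the log2 scale, MIR573 between -1.82 and -1.38 and MIR632 between -4.62 and -3.59. A direction fixed by the choice of genes with groups that do not overlap cannot turn when a library is left out, so this range describes the size of the difference and not its stability.

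**Figure D5:**
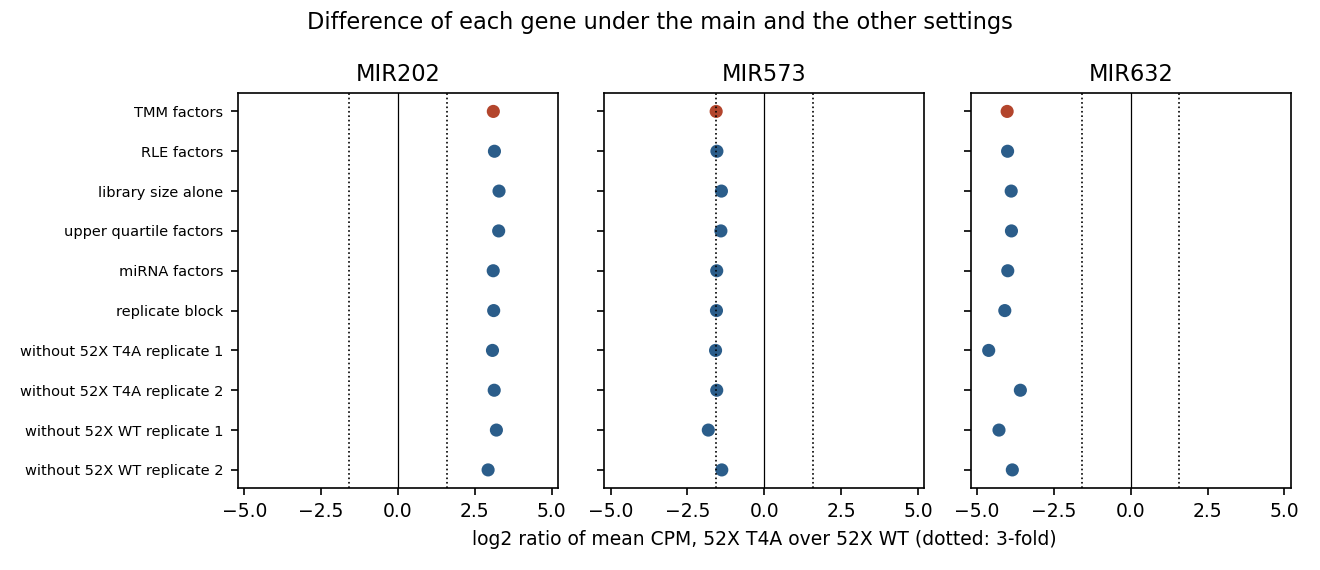
log2 ratio of mean CPM, 52X T4A over 52X WT, of MIR202, MIR573 and MIR632 with TMM factors (red) and under each other setting (blue), with dotted lines at 3-fold. MIR573 lies near the 3-fold line and crosses it with some settings, from -1.82 without 52X WT replicate 1 to -1.38 without 52X WT replicate 2, while MIR202 and MIR632 stay beyond it.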

How the data were processed

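The authors deposited raw read counts per small RNA feature for each of 4 libraries (single-end, 50 bp), with no normalization. The submitters' processing notes name cutadapt 4.6, Bowtie2 2.3.5.1, featureCounts 1.5.0 and hg38. Their settings, and how reads with several matches were counted, were not given in the sources used here. Copies with shared mature sequence can therefore hold the same reads, and arms are not separated. Features were named by GENCODE v44lift37 identifier (5579) or identical RefSeq GRCh38.p14 position (908, MIR202 and MIR632 among them). Another 575 stayed unnamed. GENCODE models were placed by exact sequence match within GRCh37, and no coordinates were converted.

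Counts were filtered with filterByExpr (minimum count 10), scaled by TMM and tested by quasi-likelihood in edgeR 4.0.16 (R 4.3.3), with Benjamini-Hochberg adjustment over 1480 features. Calls needed an FDR below 0.05 and a fold above 1.5. SE is the log2 fold change divided by the square root of F. Centred log2 CPM used a prior count of 1. Hairpins were folded with RNAfold 2.7.2. Replicates are those of the labels. P-values measure the spread between these libraries.

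The 3 genes and all lists were chosen with earlier results of these data known. The genes named were up to 4 tested features of each list by mean count, 3 scarce miRNA genes on either side of 3-fold, the 3 miRNA genes most like each gene, and the nearest features. MIR203, MIRLET7D, MIRLET7E, MIR1-1 and the genes at starts of protein-coding genes (MIR3917 and MIR6132 among them) were named after their values were seen. Alternatives were RLE, library size, upper quartile and miRNA factors, other filters and count ranges, DESeq2 1.42.0, the replicate number as a block, and leaving out each library.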

Additional observations from a re-analysis of the deposited data

How the results depend on the processing

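The 3 genes kept their direction under every scaling and without each library. Leaving out a library could not turn it, since the genes were chosen with groups that do not overlap. Scaling by library size alone moved the log2 difference of MIR202 to 3.29 and that of MIR573 to -1.39. It also moved the median log2 fold change of all features to 0.14, and upper quartile factors moved it to 0.13, against -0.05. When single libraries were left out, MIR202 ranged from 2.93 to 3.20, MIR573 from -1.82 (without 52X WT replicate 1) to -1.38 (without 52X WT replicate 2) and MIR632 from -4.62 (without 52X T4A replicate 1) to -3.59.

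The number of features called, 2 of 1480, was the least settled result. It was 9 with library size alone, 29 of 3803 with no filter, 29 with DESeq2, and 4 (without 52X T4A replicate 2) to 218 (without 52X WT replicate 2) with single libraries left out. It was 6 without 52X T4A replicate 1 and 35 without 52X WT replicate 1. The cause was not tested. Where a group is left with 1 library, that library is assumed to vary like the other group. The replicate number as a block gave 18 calls. Nothing in the labels ties libraries of the same number to each other, and their deviations from the group means correlated at 0.0946 over only 2 pairs. Under every setting 0 let-7 or other seed relatives and 0 neighbours were called.

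The scarce miRNA genes past 3-fold numbered 24 higher and 17 lower. Single libraries left out gave 23 to 67 higher (47 without 52X WT replicate 1, 67 without 52X WT replicate 2) and 16 to 34 lower (34 without 52X T4A replicate 2). A group of 1 library avoids overlap more easily than a group of 2, so counts with a library left out are not directly comparable with 24 and 17. With all libraries and a mean of 5 to 30 counts, 5 were lower. The range of 3 to 200 counts was added after the data had been seen. Depth limits MIR632 most, at 1 count in each 52X T4A library, and MIR202 at 3 counts in each 52X WT library.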
